A study of Mus musculus with 13 samples.

Results

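The comparison described here set sorted granulocyte-macrophage progenitors (GMP) of c-Cbl A/- mice against the same population of c-Cbl +/+ mice, on 1 bead array a side, which is 2 of the 13 arrays of the series. Both samples came from C57BL/6 mice and were gated as lineage-negative, c-Kit+ and Sca1- cells that stained for CD34 and CD16/32. The A/- mice carried 1 A allele and 1 null allele of c-Cbl, and the +/+ mice carried 2 normal alleles. The labels give the letter A alone. Published work on these mice describes it as an allele with a mutated RING finger, the domain that carries the ubiquitin ligase activity. The same series holds 1 array of each genotype for 5 further gates of C57BL/6 mice, used below as points of comparison. They are LTHSC and STHSC (stem cells with long-term and short-term repopulating activity), MPP (multipotent progenitors), and CMP and MEP, the progenitors of all myeloid cells and of megakaryocytes with red cells. It also holds a c-Cbl -/- LTHSC array. The labels give no age, sex or number of mice and do not say whether mice were pooled. With 1 array a side the GMP pair has no replicate, so its differences are given as values without a p-value.

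c-Cbl is an E3 ubiquitin ligase that tags activated receptor tyrosine kinases, among them Kit and Flt3, for degradation. GMP give rise to neutrophils and monocytes. They make large amounts of the serine proteases and peroxidase of primary granules, whereas the proteins of later granules are made by more mature neutrophil precursors. CMP stand upstream and are held to give both GMP and MEP, and MEP give red cells and megakaryocytes, the platelet-forming cells that also share many surface genes with stem cells.

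Values are normalized log2 signals, and a difference is the A/- value minus the +/+ value, so a difference of 1 is a 2-fold change. A feature is 1 probe per gene, or an unnamed probe. It counts as measured where at least 1 GMP array detected it, at a detection p-value under 0.01. Of 29453 features, 11081 were measured in the GMP pair. In A/- GMP 548 of them were at least 2-fold higher (4.95%) and 554 at least 2-fold lower (5%), and the median difference was 0.02. These counts use the signals as measured, with the brighter array detected. Where the dimmer array did not detect a feature only a bound is known, taken with the lowest detected signal of that array in place of its own. By that bound 340 features were at least 2-fold higher (3.07%) and 368 at least 2-fold lower (3.32%). These shares are the background for every list below, and list counts by the bound are given beside those by measured signal. In the other 5 pairs the shares at least 2-fold higher in A/- were 2.53% (LTHSC), 1.24% (STHSC), 1.57% (MPP), 1.64% (CMP) and 2.87% (MEP). The shares at least 2-fold lower were 1.68% (LTHSC), 3.44% (STHSC), 5.38% (MPP), 2.14% (CMP) and 5.65% (MEP).

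The A/- GMP array stood apart from its label in one respect. Over 12807 features detected on at least 2 arrays, it lay closer to the +/+ CMP array, at a root mean square log2 difference of 0.497, than to the +/+ GMP array, at 0.603. Each of the other 5 A/- arrays was nearest to the +/+ array of its own population. The array nearest to A/- GMP of all 13 was A/- CMP, at 0.436. The +/+ GMP array also had a CMP array as its nearest, +/+ CMP at 0.483. The A/- GMP array was also the dimmer one, with a mean raw signal of 752 against 1150 in +/+ GMP. That ratio of 0.654 was the lowest of the 6 pairs, and its part in the differences was not tested. The share of probes detected was alike, at 33.1% in A/- GMP and 33.4% in +/+ GMP.

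**Figure D1:**
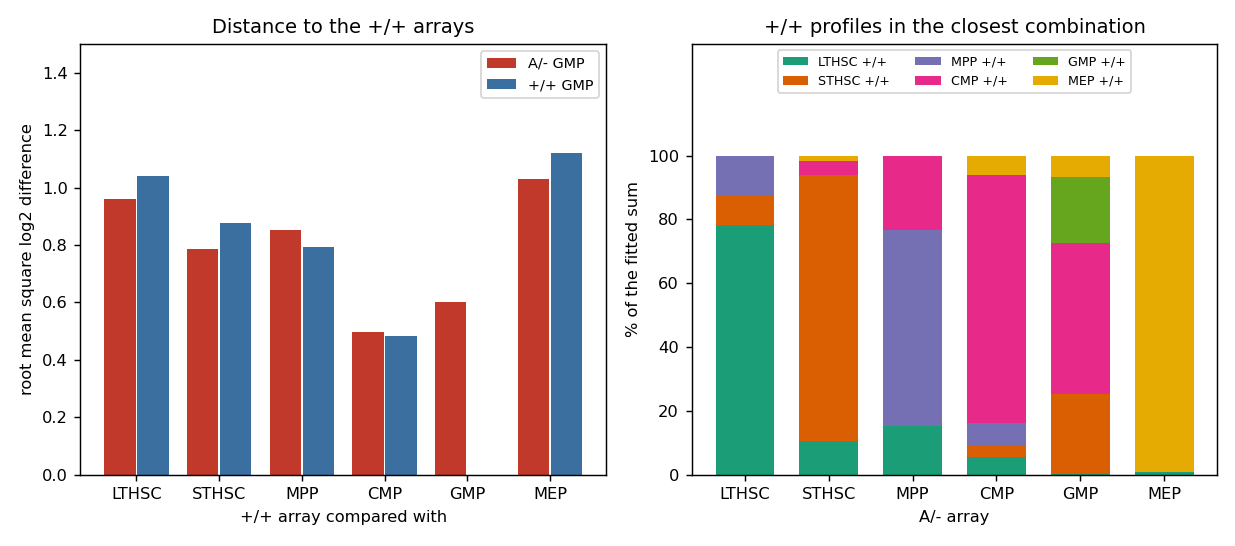
Left: root mean square log2 difference over 12807 features between each GMP array (A/- red, +/+ blue) and the 6 +/+ arrays, with no +/+ GMP bar against itself. Right: for each A/- array, the share (% of the fitted sum) of each +/+ profile in a non-negative combination fitted on linear signals. A/- GMP lay nearest to +/+ CMP, and 20.5% of its combination came from +/+ GMP. On log2 values that combination was farther from A/- GMP (0.549) than +/+ CMP alone (0.497), and its split depended on the fit.

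Kit, Cd34, Fcgr3 and Fcgr2b, genes of the sort markers, were detected on both GMP arrays. Ly6a, which encodes Sca1, had 0 probes, so the Sca1 gate could not be checked. Kit, the stem cell factor receptor, was at 12.83 in A/- GMP and 12.60 in +/+ GMP, and Cd34 was at 9.82 in A/- GMP and 9.67 in +/+ GMP. Fcgr3, which encodes CD16, was at 11.01 in A/- GMP against 12.19 in +/+ GMP, close to the 10.83 of +/+ CMP and above the 9.62 of A/- CMP. Fcgr2b, which encodes CD32, was at 10.20 in A/- GMP and 11.17 in +/+ GMP. The single Cbl probe was detected on 0 of 13 arrays, so the genotype could not be checked, and neither Flt3 probe was detected on any array.

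Promoter sequences are given for 4 genes on which the results turn. They come from RefSeq, build GRCm38.p6, and run 5′ to 3′ over the 250 bases before the annotated start of the gene. Gp1bb (a platelet glycoprotein), Ermap (a red cell blood group protein) and Klf1 (the erythroid Krüppel-like factor) were higher in A/- GMP. Ltf (lactoferrin of neutrophil granules) was lower. Capitals mark a GATA motif (the letters GATA with A or T before them and A or G after them, on either strand) or a C/EBP motif (TTGCNNAA on either strand). Each of the 4 promoters held 1 GATA motif, and Ltf also held 1 C/EBP motif.
Gp1bb, chr16:18622404-18622653, minus strand: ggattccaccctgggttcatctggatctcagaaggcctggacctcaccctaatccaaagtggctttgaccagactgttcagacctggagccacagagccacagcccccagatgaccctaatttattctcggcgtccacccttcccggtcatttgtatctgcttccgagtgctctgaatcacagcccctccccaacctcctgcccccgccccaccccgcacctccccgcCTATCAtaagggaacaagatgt
Ermap, chr4:119189996-119190245, minus strand: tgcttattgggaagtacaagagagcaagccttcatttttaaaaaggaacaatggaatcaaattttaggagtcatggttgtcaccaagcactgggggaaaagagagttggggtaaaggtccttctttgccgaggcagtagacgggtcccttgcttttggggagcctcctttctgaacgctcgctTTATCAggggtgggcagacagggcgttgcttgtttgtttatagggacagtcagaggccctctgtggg
Klf1, chr8:84901732-84901981, plus strand: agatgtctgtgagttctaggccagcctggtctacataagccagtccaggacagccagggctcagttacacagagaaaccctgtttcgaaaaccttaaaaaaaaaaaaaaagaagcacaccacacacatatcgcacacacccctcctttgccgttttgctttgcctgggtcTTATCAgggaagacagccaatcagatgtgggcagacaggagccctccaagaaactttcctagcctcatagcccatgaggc
Ltf, chr9:111019042-111019291, plus strand: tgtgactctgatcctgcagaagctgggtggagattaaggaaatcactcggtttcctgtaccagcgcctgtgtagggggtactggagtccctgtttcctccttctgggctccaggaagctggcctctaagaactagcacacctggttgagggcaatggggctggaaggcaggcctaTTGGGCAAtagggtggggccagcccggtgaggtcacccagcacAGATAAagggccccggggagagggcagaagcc

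A GATA motif stood in 27.1% of the 27025 promoters of this table, cut to the same 250 bases, and a C/EBP motif in 9.55%. Of 23 matched promoters of the erythroid membrane and heme list, 9 held a GATA motif (39.1%), as did 7 of 21 on the megakaryocyte list (33.3%) and 9 of 19 on the late granule list (47.4%). The C/EBP motif was in 6 of 19 late granule promoters (31.6%), in 3 of 21 megakaryocyte promoters (14.3%) and in 2 of 23 erythroid promoters (8.7%). A match in these letters is a description and not a binding site.

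In A/- GMP the genes of late neutrophil granules were far lower than in +/+ GMP. On the late granule and neutrophil list, 23 of 32 genes on the array were measured. Of these, 17 were at least 2-fold lower in A/- GMP by measured signal and 15 by the bound, and the median difference was -2.59, against 0.02 over all measured features. With undetected signals at the bound the median was -1.67, and over the 12 genes detected on both GMP arrays it was -1.45. It was -1.43 in the authors' processed values and -1.70 with an offset of 50. Camp (cathelicidin, an antimicrobial peptide; chr9:109847377-109849456) was at 5.0 and not detected in A/- GMP, against 12.29 in +/+ GMP, at least 79.2-fold lower. Ltf was at 5.04 and not detected in A/- GMP against 11.59 in +/+ GMP, at least 48.6-fold lower. Ngp (neutrophilic granule protein) was at 4.97 and not detected in A/- GMP against 11.20 in +/+ GMP, at least 37.1-fold lower.

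The calprotectin subunits S100a8 and S100a9, which bind calcium and zinc in neutrophils, stayed detectable. S100a8 was at 11.22 in A/- GMP and 15.23 in +/+ GMP, and S100a9 at 9.40 in A/- GMP and 13.92 in +/+ GMP. Lcn2, which encodes the iron-siderophore binding lipocalin, was at 7.86 in A/- GMP against 11.47 in +/+ GMP. By measured signal 1 member was at least 2-fold higher, and by the bound 0: Il1b, the cytokine interleukin-1 beta, was at 6.87 in A/- GMP and 5.30 (not detected) in +/+ GMP, at least 1.89-fold higher. Ncf4, a subunit of the phagocyte oxidase, was at 12.10 in A/- GMP and 12.11 in +/+ GMP.

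The signals of late granule genes did not follow the order of the populations. Among the A/- arrays Camp was at 13.22 on LTHSC, 13.02 on STHSC and 13.32 on MPP, against 5.75 on CMP, 5.0 on GMP and 6.97 on MEP. Among the +/+ arrays it was at 13.16 on LTHSC, 14.16 on STHSC, 14.53 on MPP and 13.46 on MEP, all above the 12.29 of GMP, and at 8.32 on CMP. The list's median level was 6.21 in A/- GMP and 9.48 in +/+ GMP, beside 12.12 in +/+ MPP. The list was also lower in A/- in the other pairs outside LTHSC, with medians of -1.27 (STHSC), -1.30 (MPP), -1.34 (CMP) and -4.80 (MEP). In LTHSC the median was 0.36. Mature neutrophils are not part of any of these gates, and whether RNA of other cells entered the sorts was not tested.

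All 21 genes of the primary granule list on the array were detected on both GMP arrays. Of these 7 were at least 2-fold lower in A/- GMP and 0 higher, with a median of -0.61. Mpo (myeloperoxidase) was at 15.18 in A/- GMP and 15.09 in +/+ GMP, and Prtn3 (proteinase 3) at 15.33 in both A/- and +/+ GMP. Elane (neutrophil elastase) was at 15.21 in A/- GMP and 15.53 in +/+ GMP, and Ctsg (cathepsin G) at 15.25 in A/- GMP and 15.47 in +/+ GMP. The highest signal on either array was 15.62, so these 4 genes lie near the top of the scale. The signs of the last 2 depended on the scaling: with 75th percentile scaling in place of quantile normalization the difference was 0.29 for Elane, 0.38 for Ctsg, and 0.56 for both Mpo and Prtn3. In all, 17 members were higher in +/+ GMP than in the other +/+ arrays outside LTHSC. On a linear scale A/- GMP held a median of 68.0% of their +/+ GMP signal, between 19.5% and 104%. The +/+ GMP signal both chose these members and is the divisor of the percent, so a high reading on that array would by itself lower the percent.

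The primary granule list is not limited to granule proteins. Its lowest differences were those of Fcnb (ficolin B, a lectin), at 7.51 in A/- GMP and 10.39 in +/+ GMP, and Igsf6, an immunoglobulin superfamily gene, at 6.63 in A/- GMP and 8.79 in +/+ GMP. Lyz2, the lysozyme of myeloid cells, was at 11.31 in A/- GMP and 12.56 in +/+ GMP.

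**Figure D2:**
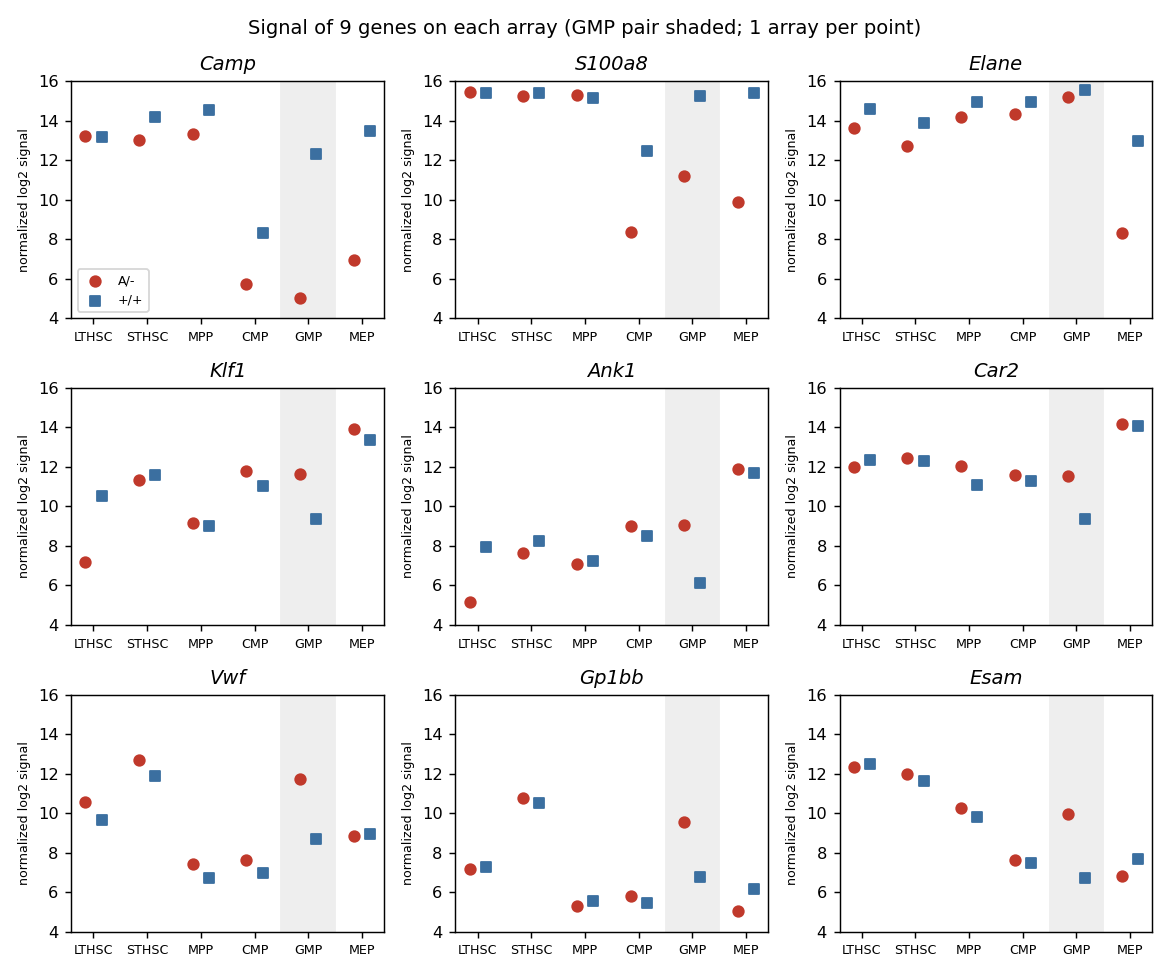
Normalized log2 signal of 9 genes on the A/- (red circles) and +/+ (blue squares) array of each population, with the GMP pair shaded. Camp and S100a8 were low in A/- GMP and high in +/+ GMP, Elane was at 15.21 in A/- GMP and 15.53 in +/+ GMP, and Klf1, Ank1, Car2, Vwf, Gp1bb and Esam were higher in A/- GMP.

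Of 21 measured myeloid transcription factors 0 were at least 2-fold higher in A/- GMP and 2 lower, by the bound too, with a median of -0.00. Cebpa, which directs entry into the granulocyte-monocyte fate, was at 8.25 in A/- GMP and 7.63 in +/+ GMP, and Spi1 (PU.1) was at 8.98 in A/- GMP and 8.99 in +/+ GMP. Cebpe, needed for late granules, was at 11.46 in A/- GMP and 11.79 in +/+ GMP. The 2 lower genes were Klf4, a monocyte factor, at 7.05 in A/- GMP against 9.17 in +/+ GMP, and Id2, an inhibitor of helix-loop-helix factors, at 4.85 and not detected in A/- GMP against 7.15 in +/+ GMP, at least 2.24-fold lower.

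Of 18 measured monocyte, macrophage and dendritic cell genes, 8 were at least 2-fold lower in A/- GMP (7 by the bound) and 0 higher, with a median of -0.71. Vcam1, an adhesion molecule of macrophages, was at 8.26 in A/- GMP and 10.05 in +/+ GMP. Adgre1, which encodes F4/80, was at 7.32 in A/- GMP and 8.93 in +/+ GMP. Of 10 measured genes of mast cells, basophils and eosinophils, 5 were at least 2-fold lower (5 by the bound) and 1 higher (0 by the bound), with a median of -0.96. The basophil proteases Prss34 (8.96 in A/- GMP, 11.80 in +/+ GMP) and Mcpt8 (8.69 in A/- GMP, 10.67 in +/+ GMP) were the lowest in difference. The eosinophil granule gene Prg2 was at 13.75 in A/- GMP and 14.28 in +/+ GMP. Of 14 measured myeloid growth factor and Fc receptors, 3 were at least 2-fold lower (2 by the bound) and 0 higher, with a median of -0.71, and Csf1r, the receptor of the monocyte growth factor, was at 9.61 in A/- GMP and 10.46 in +/+ GMP.

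Erythroid genes were higher in A/- GMP than in +/+ GMP. On the list of erythroid surface, membrane and heme genes, 30 of 41 on the array were measured, 20 were at least 2-fold higher in A/- GMP by measured signal and 20 by the bound, and 0 were lower, with a median of 1.67. Ank1 (ankyrin of the red cell skeleton) was at 9.04 in A/- GMP and 6.13 in +/+ GMP. Sptb (the beta spectrin it binds) was at 9.17 in A/- GMP and 6.24 in +/+ GMP, and a further probe of the gene differed by 2.46. Ermap was at 9.80 in A/- GMP and 7.42 in +/+ GMP.

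The carbonic anhydrase Car2 was at 11.54 in A/- GMP and 9.36 in +/+ GMP. Epor, the erythropoietin receptor, was at 8.64 in A/- GMP and 6.76 in +/+ GMP. Heme enzymes were split: Alad was at 13.34 in A/- GMP and 11.98 in +/+ GMP, whereas Fech (7.31 in A/- GMP, 7.10 in +/+ GMP) and Cpox (5.85, not detected, in A/- GMP and 6.01 in +/+ GMP) were close. Tfrc, the transferrin receptor, was at 11.88 in A/- GMP and 11.42 in +/+ GMP.

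Of 17 measured erythroid transcription factors, 4 were at least 2-fold higher in A/- GMP (4 by the bound) and 0 lower, with a median of 0.35. They were Klf1 (11.65 in A/- GMP, 9.38 in +/+ GMP), Gata1 (8.04 in A/- GMP, 5.99 in +/+ GMP), Gfi1b (10.81 in A/- GMP, 8.86 in +/+ GMP) and Tal1 (10.47 in A/- GMP, 8.93 in +/+ GMP), 4 factors that act together in erythroid and megakaryocyte cells. Gata2, which precedes Gata1 in progenitors, was at 12.48 in A/- GMP and 11.51 in +/+ GMP. Broadly used members such as Lmo2 (14.03 in A/- GMP, 13.90 in +/+ GMP) and Ikzf1 (12.44 in A/- GMP, 12.39 in +/+ GMP) were close.

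**Figure D3:**
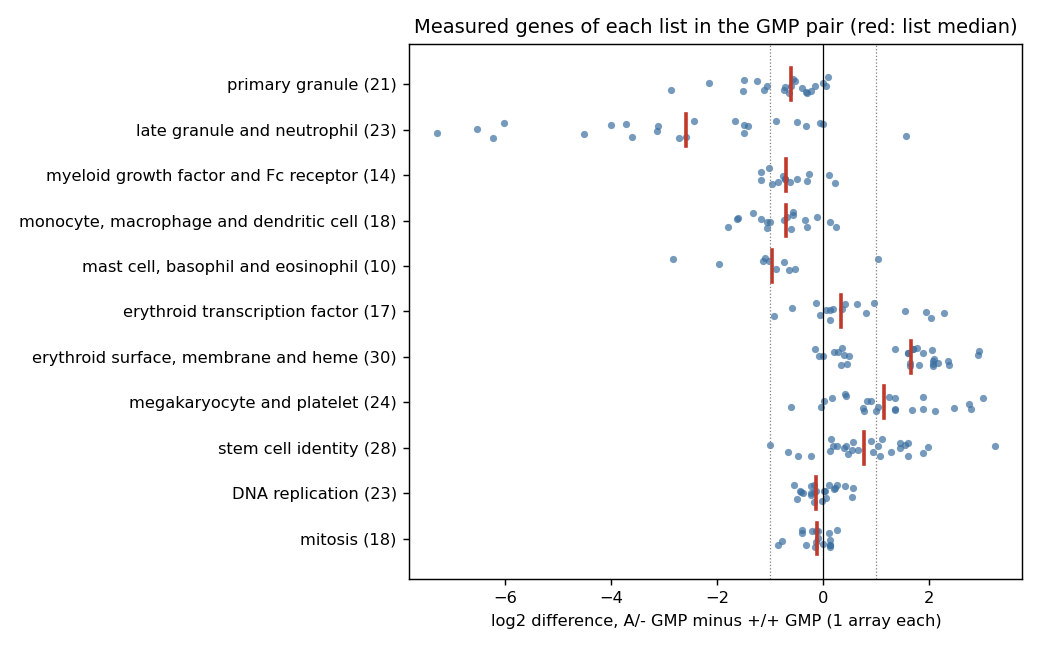
Log2 difference, A/- GMP minus +/+ GMP, of each measured gene (points) of 11 lists, with the number of genes in brackets and the list median in red. Dotted lines mark 2-fold. Undetected signals are drawn as measured. Late granule genes reach -7.29, while erythroid and megakaryocyte genes lie mostly to the right of 0.

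The erythroid levels of A/- GMP were closer to those of the CMP and STHSC arrays than to those of the MEP arrays. Against A/- CMP the 30 measured membrane and heme genes had a median difference of 0.06 in A/- GMP, with 2 at least 2-fold higher and 0 lower. Against +/+ CMP the median was 0.31, with 5 higher and 0 lower, and against +/+ MEP it was -2.11, with 1 higher and 24 lower. Against +/+ STHSC it was 0.11, with 2 higher and 2 lower, and against A/- STHSC 0.13, with 6 higher and 4 lower. The position of A/- GMP between 2 +/+ arrays was also computed on the linear scale, for genes at least 2-fold higher in the second array than in +/+ GMP. There 0 is the +/+ GMP signal and 1 that of the second array. The +/+ GMP signal thus both chose the genes and set the 0, here and below. A low reading on that 1 array would by itself move positions toward 1, and its part was not tested. Over 15 erythroid genes the median position toward +/+ CMP was 1.37, and 14 of the 15 were over 1. Over 28 genes the median position toward +/+ MEP was 0.13, between -0.02 and 1.38.

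Megakaryocyte and platelet genes were higher too, and most of them stood above both CMP arrays. Of 27 on the array 24 were measured, 14 were at least 2-fold higher in A/- GMP by measured signal and 10 by the bound, and 0 were lower. The median was 1.14, or 0.80 with undetected signals at the bound. Vwf (von Willebrand factor; chr6:125552948-125686679) was at 11.71 in A/- GMP and 8.68 in +/+ GMP, beside 7.62 in A/- CMP, 6.99 in +/+ CMP and 8.93 in +/+ MEP. Gp1bb, a subunit of its platelet receptor, was at 9.56 in A/- GMP and 6.77 in +/+ GMP, beside 5.81 in A/- CMP. Treml1, a platelet granule receptor, was at 11.41 in A/- GMP and 8.93 in +/+ GMP. F2rl2, a thrombin receptor, was at 9.10 in A/- GMP and 6.34 in +/+ GMP, and Itga2b (CD41) at 11.53 in A/- GMP and 9.42 in +/+ GMP.

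Late platelet genes were dim: Ppbp was at 6.60 in A/- GMP and 5.60 (not detected) in +/+ GMP, at least 1.58-fold higher, and Tubb1 at 6.23 in A/- GMP and 5.20 (not detected) in +/+ GMP, at least 1.22-fold higher. Pf4 (platelet factor 4) was at 13.48 in A/- GMP and 12.12 in +/+ GMP, beside 10.04 in +/+ CMP. Against A/- CMP, A/- GMP was at least 2-fold higher in 15 of these 24 genes and lower in 0, and against +/+ CMP likewise in 15 and 0.

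Vwf, Gp1bb, Treml1, F2rl2, Itga2b and Pf4 had their highest signals on the STHSC arrays. Vwf was at 12.71 in A/- STHSC and 11.89 in +/+ STHSC, and Gp1bb at 10.77 in A/- STHSC and 10.52 in +/+ STHSC. Over the 19 megakaryocyte genes at least 2-fold higher in +/+ STHSC than in +/+ GMP, the position of A/- GMP toward +/+ STHSC had a median of 0.44, between 0.14 and 1.03. Over 19 stem cell genes it had a median of 0.27, between 0.06 and 0.81, and over 19 erythroid genes 0.65, between 0.02 and 2.27.

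**Figure D4:**
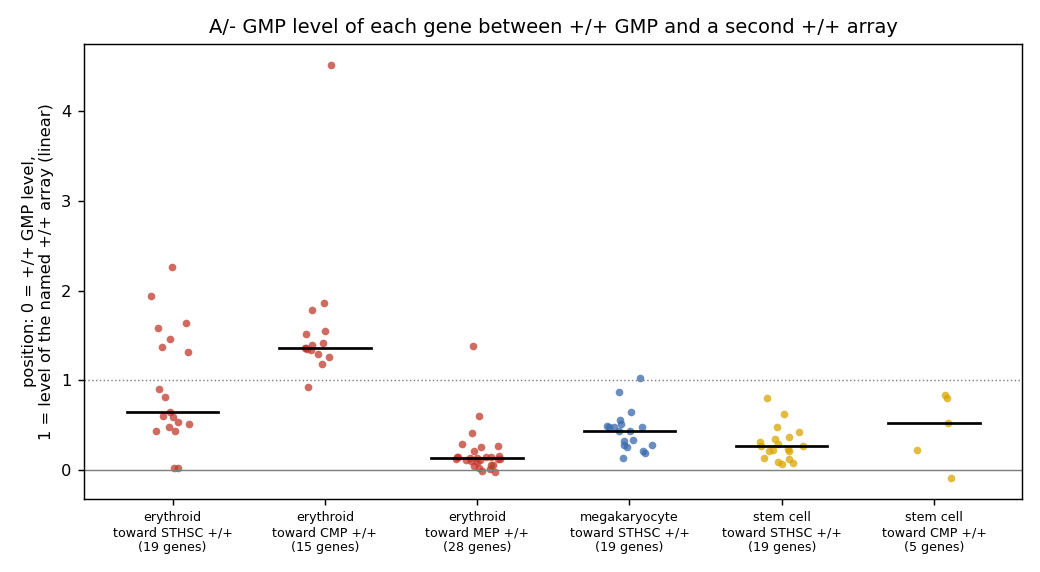
Position of A/- GMP on the linear scale between +/+ GMP (0) and a second +/+ array (1) for each gene at least 2-fold higher in the second array, by list, with the median as a black bar. Erythroid genes lie near or above 1 toward CMP and near 0 toward MEP, and megakaryocyte genes lie between 0.14 and 1.03 toward STHSC. The +/+ GMP signal both chose the genes and set the 0.

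Stem cell identity genes, of which 28 were measured, were at least 2-fold higher in A/- GMP in 12 cases by measured signal and 9 by the bound, and lower in 1. The median was 0.78, or 0.46 with undetected signals at the bound. Esam, an adhesion molecule of stem cells and platelets, was at 9.96 in A/- GMP and 6.72 in +/+ GMP. Tek (the angiopoietin receptor) was at 8.42 in A/- GMP and 6.55 in +/+ GMP, and Meis1, a homeobox factor, at 11.75 in A/- GMP and 10.64 in +/+ GMP. Hoxa9 was not detected in A/- GMP (5.94, against 6.18 in +/+ GMP), Hoxb4 was at 7.54 in A/- GMP and 8.01 in +/+ GMP, and the lower gene was Prdm16, at 6.07 in A/- GMP and 7.07 in +/+ GMP. Of 6 measured lymphoid genes 2 were at least 2-fold higher (1 by the bound) and 0 lower, with a median of -0.14, and only these 2 were above 0. Over the 3 detected on both GMP arrays 0 were at least 2-fold higher, with a median of -0.18. The gene higher by the bound was Dntt, the template-free DNA polymerase of early lymphoid progenitors. It was at 8.09 in A/- GMP and 4.92 (not detected) in +/+ GMP, at least 4.42-fold higher. Dntt was at 10.25 in A/- CMP and 11.40 in +/+ MPP. Cdh5 and Col1a1, markers of endothelium and stroma, were detected on 0 of 13 arrays. Of the 14 genes of that list on the array, 3 were measured in the GMP pair, with a median of 0.45. All 3 were above 0 and 0 were at least 2-fold higher, and 2 of them were not detected in +/+ GMP.

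Gene sets were also built from the 10 A/- and +/+ arrays outside GMP, as features detected on both arrays of a population and at least 2-fold above every other such array. Of the 36 STHSC features measured in the GMP pair, all 36 were detected in A/- GMP and 27 in +/+ GMP, so 9 were measured through A/- GMP alone. Over the 27 detected on both GMP arrays 19 were at least 2-fold higher in A/- GMP and 0 lower, with a median of 1.65. Of 298 measured MEP features, 240 were detected on both arrays, with 61 higher, 1 lower and a median of 0.46. Of 20 measured LTHSC features, 10 were detected on both, with 1 higher and 0 lower. The 2 CMP features, the mast cell genes Ms4a2 and Cpa3, were both lower in A/- GMP, so no CMP set could be followed.

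A non-negative combination of the 6 +/+ profiles was fitted to A/- GMP by least squares on linear signals, divided by each feature's mean +/+ signal. It took 47.5% from CMP, 25% from STHSC, 20.5% from GMP, 6.74% from MEP, 0.26% from LTHSC and 0 from MPP. The split depended on the fit. Without division by the mean it took 76.5% from CMP, 8.70% from GMP and 7.91% from STHSC. Least squares on log2 values took 74.6% from CMP, 21.2% from GMP and 0.214% from STHSC. The root mean square log2 residual was 0.549 in the first fit, 0.513 in the second and 0.479 in the third. The first was thus farther from A/- GMP on this measure than +/+ CMP alone, at 0.497. In the other 5 A/- arrays the share of the own population was between 61.4% (MPP) and 99.0% (MEP). These shares describe a fit and are not cell fractions. The log2 signal of A/- GMP minus that of the combination had a median of -0.06 over the erythroid membrane and heme genes and 0.38 over the megakaryocyte genes. Over the late granule genes it had a median of -3.36, with 15 of 23 at least 2-fold below, against 0.00 over all 10965 features compared. These residuals are from the first fit alone. It took 25% from +/+ STHSC, where the late granule list had a median level of 11.37, against 6.21 in A/- GMP. Against +/+ CMP alone the late granule median was -0.74, with 1 gene at least 2-fold higher in A/- GMP and 8 lower.

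Late granule and megakaryocyte genes differed in where A/- GMP stood relative to STHSC. Camp on the A/- GMP array was at most 0.569% of its linear signal on the A/- STHSC array and at most 0.26% of that on the +/+ STHSC array. For Lcn2, which was detected, the values were 3.35% of A/- STHSC and 1.06% of +/+ STHSC, and for S100a8 6.1% and 5.55%. On the position scale used above, 14 late granule genes stood at a median of -0.15 toward +/+ STHSC, between -0.79 and 0.18. Megakaryocyte genes stood at a median position of 0.44 toward +/+ STHSC. A shift in what GMP express and a second cell type in the sort cannot be told apart from 1 bulk array a side, nor can fewer cells of a type and less RNA per cell.

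Features of A/- GMP outside the range of all 6 +/+ arrays by at least 2-fold were few: 25 above and 29 below, of 29453. These counts use the signals as measured, with only the brighter side detected. The other A/- arrays had between 20 and 129 above and between 20 and 406 below. Of the 25 above, 11 were also outside in at least 3 other A/- arrays and 2 in none, and of the 29 below 20 and 0. Bcat1, a branched-chain aminotransferase, was farthest above, at 8.92 in A/- GMP and 5.92 (not detected) in +/+ GMP. It was also at 9.10 in A/- CMP and 8.17 in A/- MPP, against a highest +/+ value of 6.41 in CMP.

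Psmd8, a proteasome subunit, was at 8.75 in A/- GMP and 11.82 in +/+ GMP, and lay between 7.73 and 8.78 on the other A/- arrays outside LTHSC, against 10.82 in A/- LTHSC. Camp was the farthest below by measured signal, at -3.31 log2 units from the lowest +/+ array, CMP. It was not detected in A/- GMP, and by the bound its linear signal was at most 15.6% of that in +/+ CMP.

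Of 18 measured genes of the Cbl family, receptor kinases and adaptors, 2 were at least 2-fold higher in A/- GMP (2 by the bound) and 0 lower, with a median of 0.05. They were Epor and Inppl1, a phosphoinositide phosphatase, at 10.01 in A/- GMP and 8.19 in +/+ GMP. Cblb was at 7.44 in A/- GMP and 7.08 in +/+ GMP. Of 11 measured STAT5 targets 2 were at least 2-fold higher (1 by the bound) and 1 lower, with a median of -0.04: Socs2 was at 6.86 in A/- GMP and 5.32 (not detected) in +/+ GMP, at least 1.88-fold higher, Cish at 8.58 in A/- GMP and 7.52 in +/+ GMP, and Id1 at 6.58 in A/- GMP and 7.91 in +/+ GMP. Ccnd2 (cyclin D2), another STAT5 target, was at 10.74 in A/- GMP and 11.70 in +/+ GMP. Of 9 measured cyclin D and CDK inhibitor genes 1 was at least 2-fold higher and 0 lower, with a median of 0.17. Of 10 measured RAS-ERK feedback genes 1 was higher and 0 lower, with a median of 0.09. In both lists the higher gene was Ccnd1 (cyclin D1), at 11.03 in A/- GMP and 9.74 in +/+ GMP.

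None of 23 DNA replication genes (median -0.13), 18 mitosis genes (-0.12), 20 Myc and ribosome biogenesis genes (0.24) or 15 interferon response genes (0.14) was 2-fold apart. Of 11 heat shock genes 2 were at least 2-fold higher by measured signal and 1 by the bound. Hspa1b was at 9.10 in A/- GMP and 7.63 in +/+ GMP, and Hspb1 at 6.37 in A/- GMP and 4.92 (not detected) in +/+ GMP, at least 1.34-fold higher. Of 12 p53 targets 2 were at least 2-fold higher by measured signal and 1 by the bound. Zmat3 was at 7.72 in A/- GMP and 6.16 in +/+ GMP, and Phlda3 at 6.73 in A/- GMP and 5.41 (not detected) in +/+ GMP, at least 1.72-fold higher. Transcripts of both sexes were present on both arrays, with the Y-linked Eif2s3y at 9.19 in A/- GMP and 10.37 in +/+ GMP and Xist at 10.68 in A/- GMP and 10.64 in +/+ GMP. Of 4 measured sex-linked genes 2 were at least 2-fold lower in A/- GMP (2 by the bound) and 0 higher, with a median of -0.67. Whether the sexes of the mice differed between the 2 samples was not tested.

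The difference of the GMP pair was tested in 1 way the design allows, against the mean difference of the other 5 pairs, with the spread of the genotype difference between populations as its error. Of 12807 features, limma called 0 at an adjusted p under 0.05, and 695 had an unadjusted p under 0.05 (5.43%). The smallest adjusted p was 0.239, shared by Vwf, Treml1, Esam and Gnaz. For Vwf the contrast was 2.43 with a standard error of 0.38. For Esam it was 3.25 with a standard error of 0.46.

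Members with an unadjusted limma p under 0.05 were 20 of 37 tested erythroid membrane and heme genes, 5 of 18 erythroid transcription factors and 12 of 25 megakaryocyte genes. They were also 9 of 36 stem cell genes and 1 of 30 late granule genes, against 5.43% of all 12807 features. The lists were chosen with earlier results of these data known, so these counts are a description and not a test of the lists. The erythroid membrane and heme list had a median of 1.67 in the GMP pair, beside -0.62 (LTHSC), -0.17 (STHSC), -0.05 (MPP), 0.32 (CMP) and 0.08 (MEP). The megakaryocyte list had 1.14 in the GMP pair, beside 0.11 (LTHSC), 0.25 (STHSC), 0.06 (MPP), 0.09 (CMP) and -0.81 (MEP). Since no feature passed the adjusted threshold, the difference between populations was not established for any single gene.

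**Figure D5:**
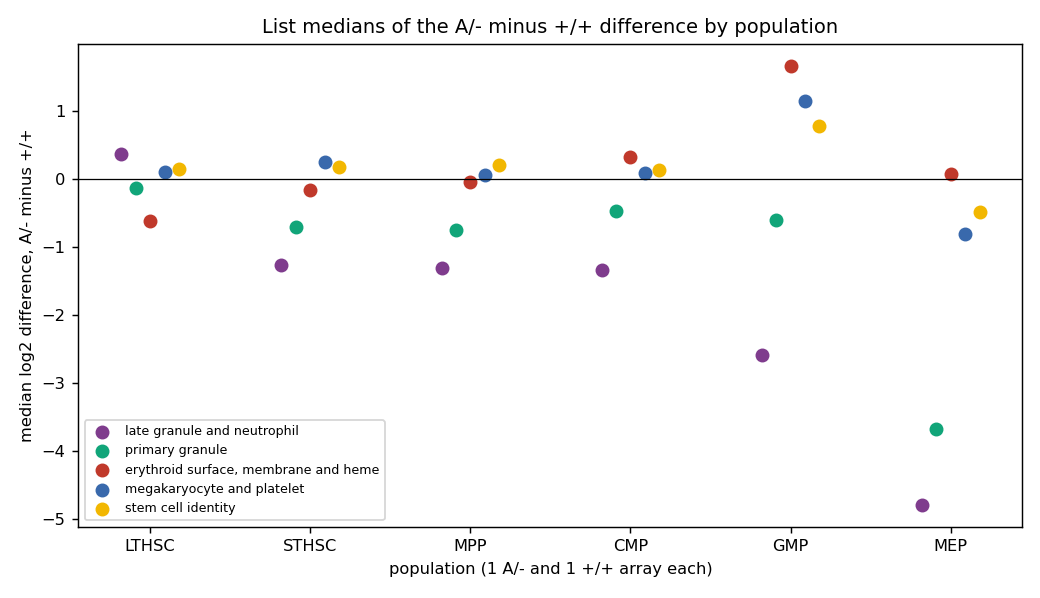
Median log2 difference, A/- minus +/+, of 5 lists in each population (1 A/- and 1 +/+ array each). In GMP the erythroid, megakaryocyte and stem cell medians are 1.67, 1.14 and 0.78, and the late granule median is -2.59, all from signals as measured.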

How the data were processed

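The 13 arrays are Illumina mouse bead arrays. Each probe of the deposited unnormalized table has, per the file headers, a linear intensity on every array and beside it a detection p-value, which compares it with negative controls. The authors' processed intensities form another deposited table, with no normalization stated in the labels and with the LTHSC arrays on a lower scale. Intensities were background-corrected with the detection p-values, given an offset of 16, quantile-normalized over 13 arrays and log2-transformed with neqc (limma 3.58.1, R 4.3.3). Of 45281 probes, 34885 had 1 gene symbol in the platform annotation, 18 several and 10378 none, and 34807 matched RefSeq. A gene was given by its probe with the highest mean. No replicate exists for the GMP pair. limma tested the GMP difference against the other 5 pairs with population as a block, leaving 4 residual degrees of freedom. On simulated data for this contrast over 12807 features it recovered 49 of 100 features changed 4-fold and 94 of 100 changed 16-fold, with 9 false calls. The changed features were drawn at random and given independent normal noise. The rates therefore need not hold for genes of wide spread, such as Camp, with a contrast of -5.03 and a standard error of 1.94. Named genes were list members, the 15 highest and 15 lowest differences at least 2-fold in both tables, and the 10 farthest above and below the +/+ range. The members and lists were chosen with earlier results of these data known. Python 3.11.15 with NumPy 2.4.6, pandas 2.3.3 and SciPy 1.17.1 was used for the rest. Precision is limited by 1 array a side.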

Additional observations from a re-analysis of the deposited data

How the results depend on the processing

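The counts of features at least 2-fold higher and lower in A/- GMP were 548 and 554. They became 161 and 168 in the authors' processed values, 287 and 294 with an offset of 50, 286 and 309 with detection on both GMP arrays, 160 and 131 at a 3-fold threshold, and 340 and 368 with an undetected side at the lowest detected signal of its array, an alternative chosen after seeing the data. The late granule median of -2.59 became -1.43, -1.70 and -1.45 under the first 3 of these and -1.67 under the last. The other 8 list medians followed moved by less than 1.5-fold in all alternatives, the megakaryocyte median being lowest in the authors' values at 0.58 and the stem cell median at 0.43. The share of the combination from +/+ GMP was 8.70% without division by the mean, against 20.5%, and that from +/+ STHSC was 7.91% there and 0.214% by least squares on log2 values, against 25%. Features above the +/+ range numbered 13 with 75th percentile scaling and 8 in the authors' values without LTHSC, against 25. Features below it numbered 50 without the +/+ LTHSC array and 14 in the authors' values without LTHSC, against 29. The contrast called 0 features in every alternative run, also when each other pair was left out. Features with an unadjusted limma p under 0.05 numbered 547 to 889 of 12807 in the alternatives on the same features. Without the detection filter they numbered 1640 of 29453. Among recomputed differences of 30 named genes, 183 stayed within 1.5-fold and 42 moved, and 0 reversed. Part of this was fixed in advance. The settings that change only the detection rule leave the difference of a gene as it was. The named genes were also chosen to be at least 2-fold apart in the same direction in the authors' values, so none could reverse there. A slide block was not run because the headers used give no slide. No paired analysis was possible because the labels give no replicate numbers; the contrast itself pairs the genotypes within each population. Genes not detected on the dim array have only a bound.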
